A study of Rattus norvegicus with 13 samples.

Results

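Genes of the cell cycle were followed in bulk RNA of rat hearts. They are 41 genes taken by name from a fixed list, of 41182 gene names in all the deposited tables. All 41 were listed at 6 and 8 months, and 40 at 2 months, where E2f1 was not listed. Sorted by role, 5 are G1 cyclins and E2F, 9 act in replication licensing and DNA synthesis, 9 are kinases, cyclins and ubiquitin ligase genes of G2 and mitosis, 6 belong to the kinetochore, the spindle checkpoint or the chromosomal passenger complex, 4 to the spindle, 6 to cytokinesis and 2 to chromosome structure. Total RNA of whole heart tissue was sequenced in 13 libraries. Control hearts are labelled WT with no treatment, and the sonogenetic hearts, called ST here, carried AAV2/9-cTnT-MscL-G22S-mCherry. That adeno-associated virus expresses an altered form of MscL, a channel of bacteria that opens when the membrane is stretched, together with the red fluorescent protein mCherry, under the cardiac troponin T promoter, which is active in heart muscle cells and not in most other cells of the heart. Each group had 2 hearts at 2 months and 3 at 6 months, and at 8 months a group of 3 ST hearts stands without WT hearts among the samples used here. The labels do not say whether the months are ages or times after the virus, and they name no virus-only control, so the channel and the virus cannot be told apart.

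Dividing cells pass from G1, where D-type cyclins free E2F factors from the retinoblastoma protein, through DNA replication, licensed by the Mcm2 to Mcm7 helicase, into mitosis, driven by Cdk1 with cyclins A and B and by the Aurora and Polo kinases. Most heart muscle cells of adult mammals have left this cycle, and division in the adult heart is mostly that of other cells, such as endothelial cells and fibroblasts, while D-type cyclins and Mcm genes are also transcribed in cells that do not divide. In bulk RNA, fewer cells of a type and less RNA per cell cannot be told apart.

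Promoters of many such genes share short motifs: CCAAT, bound by NF-Y, the cell cycle genes homology region (CHR), bound by MuvB complexes, and E2F sites. RefSeq promoters of the rat assembly GRCr8 were matched by symbol for 30 of the 41 genes. The 250 bases before the start of each promoter entry were searched on both strands. Many of these windows overlap the span of the gene they belong to. Those of Birc5, Kif11, Aurka and Mki67, for example, lie wholly within the span of the gene itself. The windows of Top2a, Mcm5 and Pcna lie outside their own genes, and overlap of the windows with other genes was not examined. The letters searched were CCAAT for NF-Y, TTTGAA or TTCGAA for the CHR, and for E2F TTCCCGC or TTGGCGC, whose complement can overlap CCAAT. The first was in 23 of the 30 windows (76.7%, against 34.0% of all 33469 RefSeq windows of that length), a CHR in 14 (46.7% against 17.4%) and an E2F match in 7 (23.3% against 5.0%), and 11 windows held both CCAAT and a CHR (36.7% against 6.31%). Of the 7 windows of replication genes 4 held an E2F match and 2 a CHR, while of the 5 windows of cytokinesis genes 1 and 4 did. These matches describe letters, not bound sites. The windows of Top2a (chr10:84473094-84473343, minus strand), Mcm5 (chr19:13488563-13488812, plus strand) and Pcna (chr3:139955821-139956070, minus strand) are shown because these genes changed in different comparisons and carry different motifs. They read 5′ to 3′ in the direction of the gene, with matches on either strand in capitals.
Top2a: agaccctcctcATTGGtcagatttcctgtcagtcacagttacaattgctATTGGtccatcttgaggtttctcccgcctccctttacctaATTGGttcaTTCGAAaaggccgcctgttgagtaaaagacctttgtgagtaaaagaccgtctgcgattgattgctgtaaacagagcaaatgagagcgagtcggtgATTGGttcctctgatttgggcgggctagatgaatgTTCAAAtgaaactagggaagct
Mcm5: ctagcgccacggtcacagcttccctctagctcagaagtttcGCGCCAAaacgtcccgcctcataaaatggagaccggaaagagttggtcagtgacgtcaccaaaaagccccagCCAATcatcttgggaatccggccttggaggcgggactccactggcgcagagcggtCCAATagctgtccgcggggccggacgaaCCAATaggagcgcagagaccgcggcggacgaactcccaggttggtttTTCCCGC
Pcna: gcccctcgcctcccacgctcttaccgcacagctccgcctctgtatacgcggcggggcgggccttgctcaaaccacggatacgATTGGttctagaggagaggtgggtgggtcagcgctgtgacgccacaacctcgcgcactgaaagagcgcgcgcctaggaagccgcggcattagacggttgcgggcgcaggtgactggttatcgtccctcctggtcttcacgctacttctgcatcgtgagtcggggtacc
Top2a had 4 CCAAT matches and 2 CHR matches, at 152 and 22 bases before the start. Mcm5 had 3 CCAAT matches and 2 E2F matches, at 209 and 7 bases. Pcna had 1 CCAAT match, at 168 bases.

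Levels are given as CPM, counts per 1000000 counts of the library after scaling. Where groups are said not to overlap, the share of all genes for which this holds was not counted. Library totals ran from 4696147 to 11296864 counts, and 3 counts amounted to 0.266 to 0.639 CPM depending on the library. Summed over 8 heart muscle markers (7 of them listed at 2 months), every library held between 56077 and 107262 CPM, and none of these markers was at 0. At 6 months the sums were 97510 to 104804 CPM in WT and 89946 to 95908 CPM in ST hearts, and at 8 months 105887 to 107262 CPM, without overlap. By the test used below, 3 of 8 were higher and 1 lower in ST hearts of 6 months. At 8 months 5 were higher and 1 lower against ST, and 5 and 2 against WT hearts of 6 months. The part of these cells in the result was not tested. Within the groups of 6 months, WT replicate 1 and ST replicate 2 stood apart from the other replicates, with chi-square values per gene of 6.89 to 8.67 against 1.93 and 2.13 for the remaining pairs.

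At 2 months 4 genes were lower in ST hearts, both genes of chromosome structure, 1 of cytokinesis and 1 of G1. Mki67, a coat protein of mitotic chromosomes used as a marker of dividing cells, Top2a, the topoisomerase that untangles replicated chromosomes, Prc1, which bundles microtubules between separating chromosomes, and Ccnd2, a D-type cyclin, passed the threshold as lower, and 0 genes passed as higher. Of the 40 listed genes 30 had enough counts to be tested by the edgeR quasi-likelihood test at a Benjamini-Hochberg adjusted p of 0.05. Over all 12121 genes tested, 2.1% were called lower and 2.7% higher. Log2 fold changes were below 0 for 24 of the 30 and had a median of -0.70, against -0.00 for all genes tested. A gene can pass the filter through 1 group alone, so that these counts describe the genes tested and not all 40. Prc1 passed it through the WT hearts alone and the other 3 called genes through each group. With no filter on low counts all 40 were fitted: 8 were lower and 0 higher, where 2.78% and 3.59% of all genes were, and the median was again -0.70. The additional 4 were Ccnd1, Mcm5 and the kinetochore genes Cenpe and Cenpf.

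**Figure D1:**
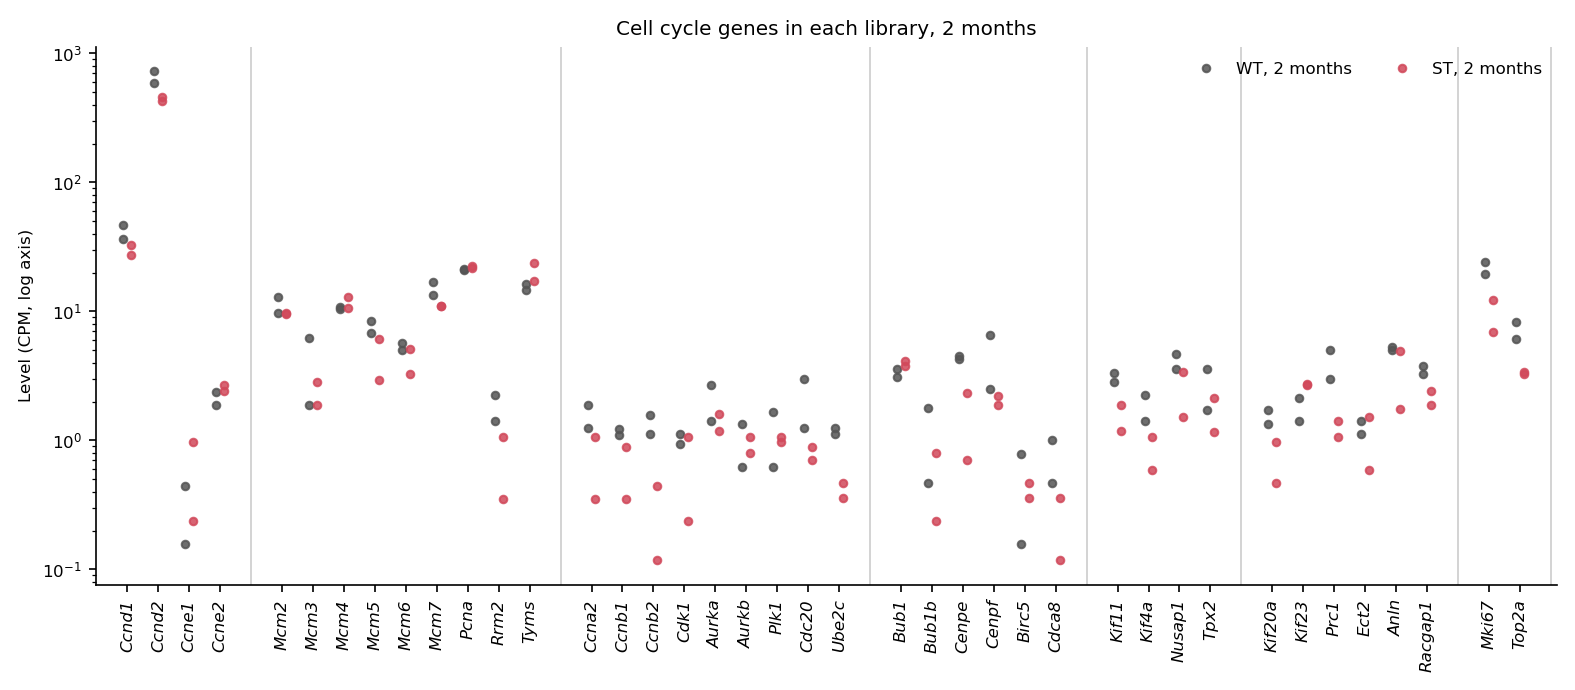
Levels of the 40 listed cell cycle genes at 2 months, in CPM on a log axis, with 1 point for each library (2 WT hearts in grey, 2 ST hearts in red) and grey lines between roles. Both ST points lie below both WT points for Mki67, Top2a, Prc1 and Ccnd2, and also for genes with no call, among them Mcm7, Anln and Racgap1. For Pcna, Tyms, Bub1, Kif23 and Ccne2 both lie above. Pcna stood at 21.0 to 22.4 CPM in all 4 libraries.

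Mki67 had 24.3 and 19.6 CPM in the WT hearts and 12.2 and 6.94 CPM in the ST hearts. Both ST hearts were below both WT hearts, with a log2 fold change of -1.18 (SE 0.22, adjusted p = 0.0045). Top2a stood at 8.25 and 6.11 CPM in WT and at 3.38 and 3.29 CPM in ST hearts, again without overlap, and its log2 fold change was -1.12 (SE 0.28, adjusted p = 0.028). Prc1 fell from 5.02 and 2.98 CPM to 1.42 and 1.06 CPM, a log2 fold change of -1.69 (SE 0.40, adjusted p = 0.022). The groups of Prc1 did not overlap, although its counts, 64 over the WT and 25 over the ST libraries, are few.

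Of the other mitotic genes none passed the test with the filter: 0 of 3 tested kinases, cyclins and ubiquitin ligase genes, 0 of 3 kinetochore genes and 0 of 4 spindle genes. Cenpe, a motor that carries chromosomes to the spindle equator, had 4.24 and 4.54 CPM in WT against 2.31 and 0.706 CPM in ST hearts (log2 fold change -1.46, SE 0.42, adjusted p = 0.058). Cenpf, a kinetochore protein, had 6.58 and 2.51 against 2.22 and 1.88 CPM. Cdc20, an activator of the anaphase-promoting complex, had 3.01 and 1.25 against 0.888 and 0.706 CPM, and Ect2, which starts furrowing in cytokinesis, 1.11 and 1.41 against 1.51 and 0.588 CPM, where the groups overlapped. The tested spindle genes Kif11, Kif4a, Nusap1 and Tpx2, which build or organise the spindle, had log2 fold changes from -1.12 to -0.69. Against that direction, Kif23, a motor of the central spindle, and Bub1, a checkpoint kinase, were at 0.59 (SE 0.39) and 0.24 (SE 0.31), and neither differed by the test. The 10 genes too low to test, Aurkb, Birc5, Bub1b, Ccnb1, Ccnb2, Ccne1, Cdca8, Cdk1, Plk1 and Ube2c, together had 151 counts over the WT and 116 over the ST libraries, a scaled ratio of 0.597 with a 95% interval from 0.465 to 0.766. Such intervals cover counting error only and not the spread between hearts.

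Summed over the 27 genes outside G1 and replication, the level was 96.3 and 74.3 CPM in the WT hearts and 55.2 and 36.8 CPM in the ST hearts. The WT hearts and the ST hearts thus differed among themselves as well as between the groups. Summed counts gave ratios of ST to WT of 0.536 for the kinases, cyclins and ubiquitin ligase genes of G2 and mitosis (interval 0.429 to 0.670), 0.586 for the kinetochore genes (0.479 to 0.716), 0.555 for the spindle genes (0.440 to 0.699) and 0.664 for the cytokinesis genes (0.554 to 0.795).

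In G1, Ccnd2 had 724 and 587 CPM in WT and 427 and 458 CPM in ST hearts, a log2 fold change of -0.57 (SE 0.14, adjusted p = 0.025). Its partner gene Ccnd1 had 46.9 and 36.3 against 32.4 and 27.2 CPM, also without overlap, and did not pass the test with the filter (-0.49, SE 0.16, adjusted p = 0.099). Ccnd2 alone supplied most of the counts of the whole list, 10247 of 13711 in the WT hearts. Of the 9 replication genes 0 passed the test with the filter in either direction, and their summed ratio was 0.932 (interval 0.868 to 1.000). Their log2 fold changes were below 0 for 6 and above 0 for 3, with a median of -0.33. Without a filter Mcm5 was lower (-0.78, SE 0.26, adjusted p = 0.045 by edgeR). Pcna, the sliding clamp of DNA polymerase, had a log2 fold change of 0.07 (SE 0.16). Tyms, which makes thymidylate for DNA, had 16.3 and 14.6 CPM in WT against 23.8 and 17.3 CPM in ST hearts (0.42, SE 0.19, adjusted p = 0.24).

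With 2 hearts a group, single libraries carry weight. Without WT replicate 1 the calls of Top2a (-0.87, adjusted p = 0.43), Prc1 (-1.23, adjusted p = 0.46) and Ccnd2 (-0.41, adjusted p = 0.55) were lost and only Mki67 remained, and without ST replicate 1 there were 7 calls. Prc1 and Top2a also did not pass by DESeq2. Markers of some other cells moved with the group: the summed level of 6 listed erythroid markers was 192 to 236 CPM in WT and 401 to 468 CPM in ST hearts with 0 of the 6 at 0 in either group, and that of 6 listed mesothelial markers 10.6 to 11 and 18.0 to 21.8 CPM, with 1 of them at 0 in the WT group. Of these markers 2 of 4 tested erythroid and 2 of 3 tested mesothelial ones were higher, and 0 were lower. Markers of T, B and NK cells (11 listed) summed to 19.9 to 20.6 CPM in WT and 16.5 to 18.9 CPM in ST hearts, with 1 and 2 of them at 0, and 0 of 2 tested were called. Endothelial markers summed to 1109 to 1170 and 1104 to 1155 CPM (1 of 8 lower, 0 higher). Fibroblast markers summed to 1424 to 1574 and 1464 to 1679 CPM (0 of 8 called), and both of these lists overlapped. Smooth muscle and pericyte markers summed to 521 to 528 and 555 to 591 CPM (0 of 7 tested called). The part of these cells in the result was not tested.

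At 6 months the list split. Aurkb, the kinase of the chromosomal passenger complex, rose by far more than any other gene of the list in ST hearts, the D-type cyclins Ccnd1 and Ccnd2 rose with Pcna, Mcm5, Prc1 and Nusap1, and Mcm2, Mcm4, Mcm7, Tyms and Racgap1 fell. Of the 41 genes 18 were tested, 7 of which were higher and 5 lower, on a background of 19.9% higher and 20.1% lower among all 13253 genes tested. The median log2 fold change of the 18 was -0.11, against -0.00 for all genes. With no filter all 41 were fitted, and 10 were higher and 5 lower where 13.2% and 12.3% of all genes were. Their median was then 0.27, opposite in sign to that of the 18. The additional 3 were Ccna2, Kif23 and Anln. Scaled by library size only, the split of all genes moved from 2643 higher and 2662 lower to 1731 and 3714, the median of all genes from -0.00 to -0.12, and that of the list from 7 and 5 to 6 and 5.

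**Figure D2:**
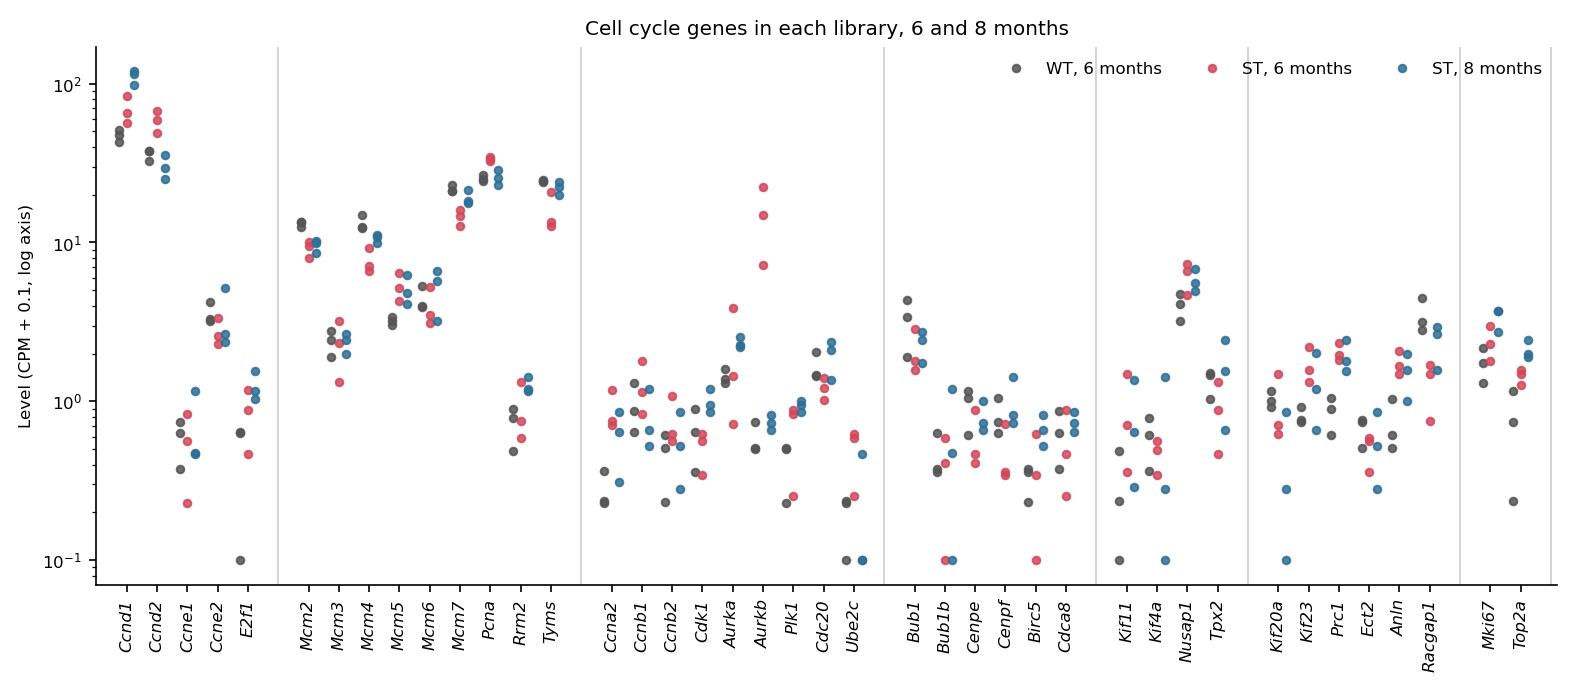
Levels of the 41 cell cycle genes at 6 and 8 months, in CPM plus 0.1 on a log axis, with 1 point for each library (3 hearts a group) and grey lines between roles. Aurkb stands at 7.12 to 22.2 CPM in ST hearts of 6 months and below 1 CPM in the WT hearts of 6 months and the ST hearts of 8 months.

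Aurkb had 0.410, 0.644 and 0.400 CPM in the WT hearts and 22.2, 7.12 and 14.8 CPM in the ST hearts. Every ST heart was above every WT heart, and the ST hearts differed among themselves, replicate 2 being the lowest. In counts these were 11 against 315, a scaled ratio of 29.0 (interval 16.0 to 58.8), and the log2 fold change was 4.85 (SE 0.53, adjusted p = 2.5e-05). Aurkb passed the filter through the ST group alone, and without a filter its log2 fold change was 4.86 (adjusted p = 3.5e-14 by edgeR). At 2 months it had 0.627 to 1.34 CPM over both groups.

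The partners of Aurkb in the passenger complex showed no rise like its own, though Birc5 and Cdca8 were too low to test. Birc5, the survivin subunit, had 5 counts over the WT and 6 over the ST libraries (ratio 1.22, interval 0.309 to 5.04). Cdca8, the borealin subunit, had 12 and 10 (0.845, interval 0.327 to 2.13). Incenp, the scaffold that activates the kinase and no member of the list, fell from 6.83, 7.47 and 6.14 CPM to 4.01, 3.44 and 2.88 CPM (log2 fold change -0.99, SE 0.20, adjusted p = 0.0021). Mitotic kinases and cyclins beside Aurkb were near the limit of counting. Ccnb1, a cyclin of Cdk1, had 19 and 25 counts, Cdk1 itself 12 and 9, and Plk1, the Polo kinase, 7 and 13. Ccna2, the cyclin of late S phase and G2, had 4 and 17 counts (ratio 4.31, interval 1.41 to 17.6), and Ube2c, a ubiquitin carrier of the anaphase-promoting complex, 2 and 9 (4.56, interval 0.944 to 43.4). Ccnb2, the other B-type cyclin here, had 8 and 15 counts, and Aurka, the Aurora kinase of spindle poles, 30 and 44. Cdc20 was tested and gave no call, at -0.46 (SE 0.35).

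Aurkb lies on chromosome 10 (GRCr8, 54243116 to 54249675) and overlaps no other RefSeq gene. Its neighbours Ctc1, 8969 bases away, and Borcs6, 9673 bases away, had log2 fold changes of -0.10 (SE 0.10) and -0.07 (SE 0.14) at 6 months and did not pass the test.

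**Figure D3:**
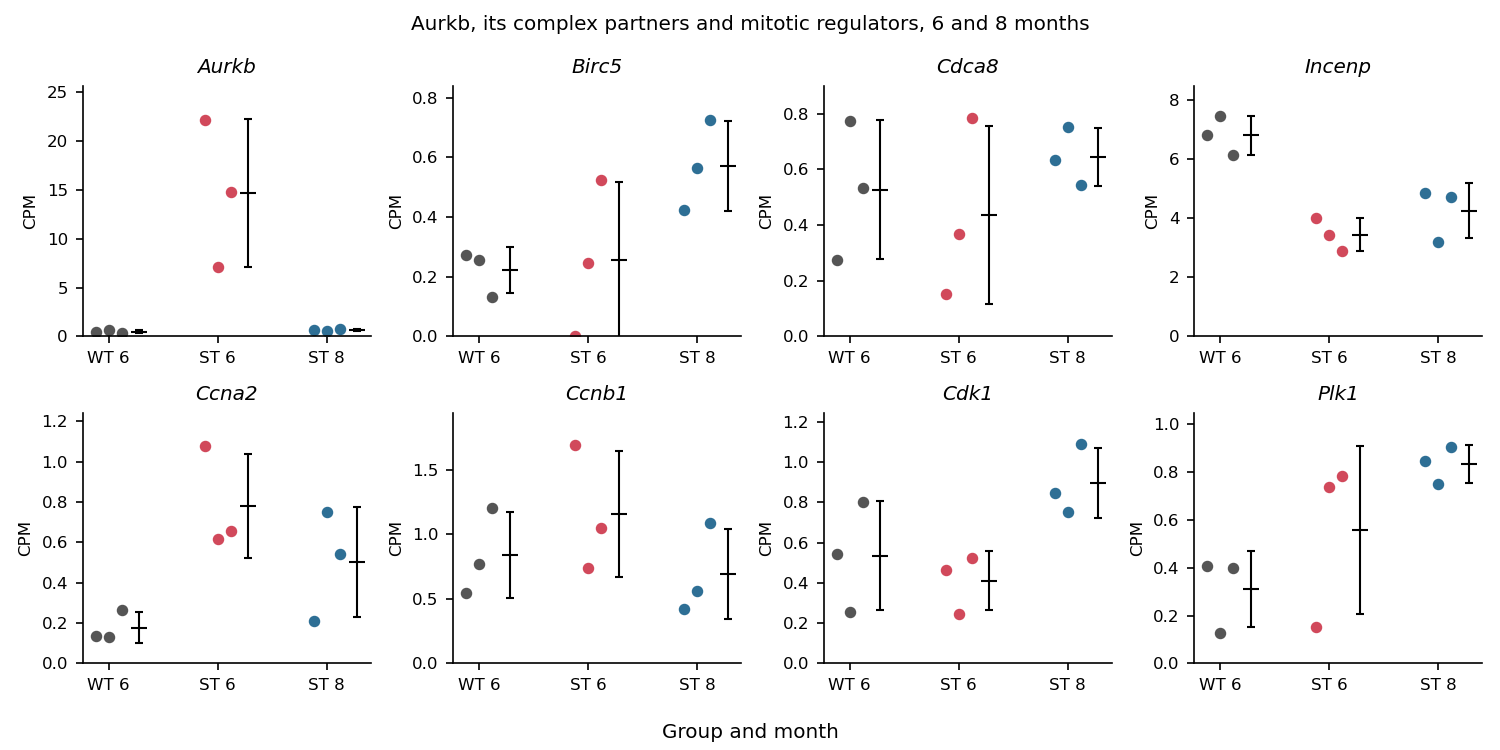
Aurkb, the passenger complex genes Birc5, Cdca8 and Incenp, and the mitotic genes Ccna2, Ccnb1, Cdk1 and Plk1 at 6 and 8 months, in CPM from 0, with 1 point for each library and the mean ± SD (n = 3) in black, drawn from 0 upwards. The scales differ between panels: Aurkb reaches 22.2 CPM, while Birc5 and Cdca8 stay below 1 CPM in all groups.

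The D-type cyclins were higher in ST hearts of 6 months. Ccnd1 had 47.5, 42.9 and 50.8 CPM in WT and 82.9, 56.3 and 65.6 CPM in ST hearts (log2 fold change 0.53, SE 0.13, adjusted p = 0.0056). Ccnd2 had 37.8, 37.6 and 32.4 against 59.0, 48.9 and 66.8 CPM (0.70, SE 0.12, adjusted p = 0.00058). In both, every ST heart was above every WT heart. The E-type cyclins, which carry cells from G1 into replication, gave no call: Ccne2 was at -0.40 (SE 0.25), and Ccne1, with 11 and 10 counts, was too low to test, as was E2f1 with 8 and 16.

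The replication genes moved in both directions within 1 complex. Subunits of the Mcm2 to Mcm7 helicase stood as follows. Mcm4 fell from 14.7, 12.5 and 12.3 CPM to 6.47, 7.0 and 9.15 CPM (log2 fold change -0.79, SE 0.16, adjusted p = 0.0020). Mcm7 fell from 23.1, 20.9 and 21.1 to 14.6, 15.8 and 12.6 CPM (-0.59, SE 0.12, adjusted p = 0.0018), and Mcm2 from 13.4, 12.5 and 13.3 to 10, 9.46 and 7.85 CPM (-0.52, SE 0.13, adjusted p = 0.0091). In each of the 3 the groups did not overlap. Mcm5 went the other way, from 3.28, 3.09 and 2.94 CPM to 6.32, 4.18 and 5.10 CPM (0.73, SE 0.22, adjusted p = 0.021). For Mcm3 and Mcm6 the fold changes were -0.08 (SE 0.34) and -0.14 (SE 0.25), within their errors. Mcm7 shares its span with the microRNA genes Mir25, Mir93 and Mir106b, and the sources used here do not say whether counting used strand.

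Pcna rose from 24.3, 25.1 and 26.7 CPM to 32.5, 34.5 and 33.6 CPM (0.41, SE 0.09, adjusted p = 0.0032). Tyms fell from 24.0, 24.2 and 24.6 CPM to 13.4, 20.6 and 12.6 CPM (-0.63, SE 0.16, adjusted p = 0.0085), with ST replicate 2 nearest to the WT hearts. Rrm2, a subunit of the reductase that makes deoxynucleotides, had 14 and 17 counts. Summed over the 9 replication genes, the level was 104.3 to 109.6 CPM in WT and 86.7 to 98.5 CPM in ST hearts, a ratio of 0.856 (interval 0.807 to 0.909).

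**Figure D4:**
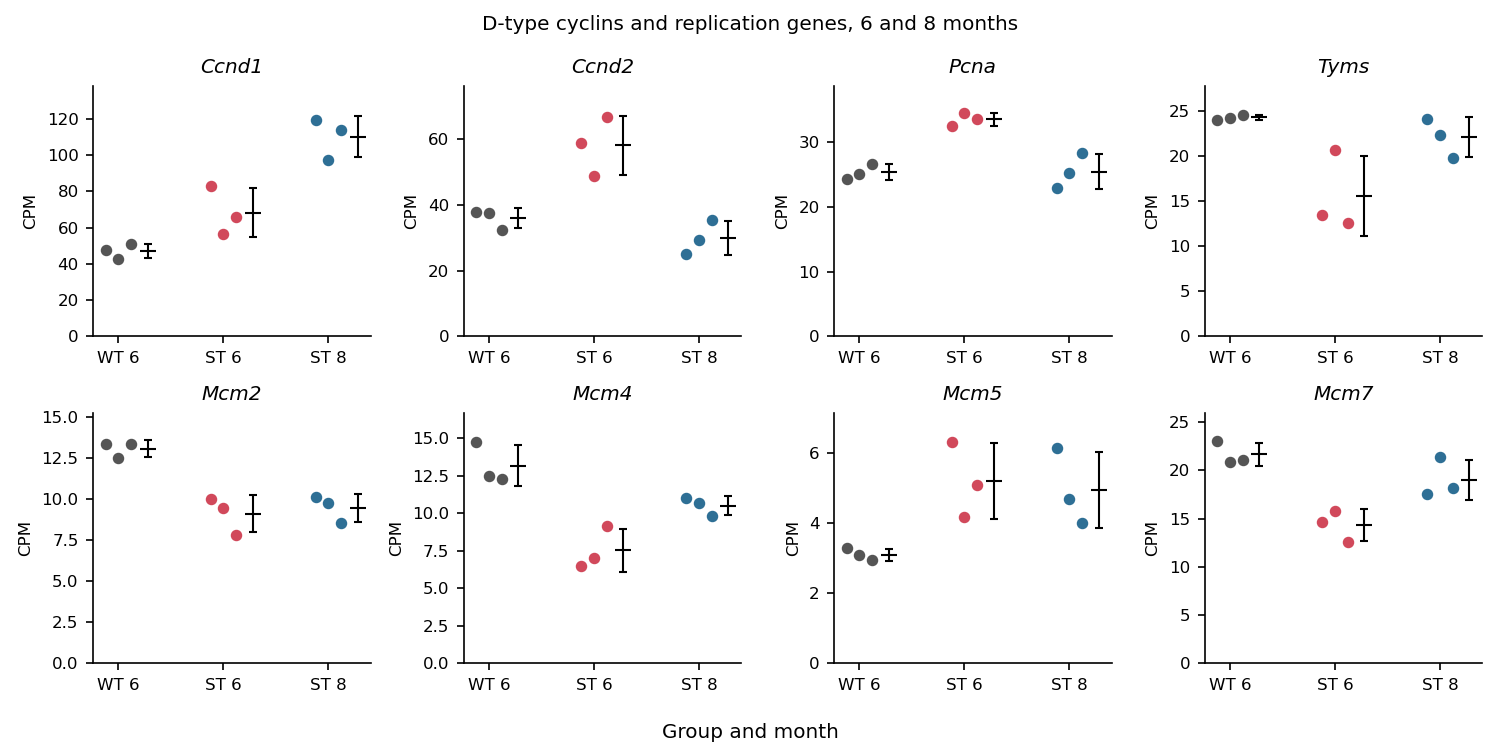
D-type cyclins and 6 replication genes at 6 and 8 months, in CPM from 0, with 1 point for each library and the mean ± SD (n = 3) in black. Ccnd2 and Pcna are highest in the ST hearts of 6 months, Ccnd1 is highest in the ST hearts of 8 months at 97.4 to 119 CPM, and Mcm4, Mcm7 and Tyms are lowest in the ST hearts of 6 months.

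Of the cytokinesis genes, Prc1 rose from 0.956, 0.515 and 0.801 CPM to 1.85, 1.72 and 2.22 CPM (log2 fold change 1.34, SE 0.36, adjusted p = 0.011), and Racgap1, a GTPase-activating protein of the central spindle, fell from 2.73, 4.38 and 3.07 CPM to 1.39, 1.60 and 0.654 CPM (-1.47, SE 0.35, adjusted p = 0.0055). Neither pair of groups overlapped. Each passed the filter through 1 group alone, Prc1 through the ST and Racgap1 through the WT hearts, and without a filter their values were 1.35 (adjusted p = 0.013) and -1.46 (adjusted p = 0.00084) by edgeR. Anln, which links actin and myosin in the contractile ring, had 14 and 37 counts (ratio 2.68, interval 1.41 to 5.37), and Kif23 16 and 36 (2.28, interval 1.23 to 4.40). Kif20a, a motor of the central spindle, had 21 and 18 counts and Ect2 13 and 9. Of the spindle genes, Kif11, the motor that separates spindle poles, had 4 and 16 counts (4.06, interval 1.31 to 16.7), Kif4a 11 and 8, and Tpx2 28 and 17. Nusap1, a spindle microtubule protein, rose by 0.63 (SE 0.23, adjusted p = 0.049), with 4.64, 3.09 and 4.0 CPM in WT and 6.47, 4.54 and 7.19 CPM in ST hearts, and here the groups overlapped. Mki67 had 1.64, 2.06 and 1.20 CPM in WT and 1.70, 2.21 and 2.88 CPM in ST hearts, overlapping groups with no call (0.48, SE 0.32, adjusted p = 0.26). Top2a was too low to test with the filter, at 14 and 30 counts (ratio 2.17, interval 1.12 to 4.43).

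The kinetochore genes had 130 counts over the WT and 84 over the ST libraries, a ratio of 0.655 (interval 0.492 to 0.869), led by Bub1 at 70 and 43. Bub1 gave no call, and Cenpe (19 and 11 counts), Cenpf (16 and 8) and the checkpoint kinase gene Bub1b (8 and 6) were too low to test. The 27 genes outside G1 and replication summed to 26.2, 25.8 and 27.5 CPM in WT and 52.3, 33.9 and 48.0 CPM in ST hearts. Without Aurkb the sums were 25.8, 25.1 and 27.1 against 30.1, 26.8 and 33.2 CPM. These ranges overlapped, so that most of the difference between the sums was Aurkb. The 23 genes too low to test had 296 and 387 counts together, a ratio of 1.33 (interval 1.14 to 1.55).

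Nusap1 and Mcm5 lost their calls at 6 months when any of 4 libraries was left out (WT replicate 2 or 3, ST replicate 1 or 3), with log2 fold changes from 0.48 to 0.64 and from 0.58 to 0.74. For Prc1, leaving out WT replicate 2 ended the call (1.13, adjusted p = 0.053), and by DESeq2 none of the 3 passed. Smooth muscle and pericyte markers (8) summed to 289 to 371 CPM in WT and 399 to 570 CPM in ST hearts and 9 erythroid markers to 439 to 572 and 758 to 841 CPM, with 0 markers of either list at 0 in either group. Smooth muscle markers were higher for 6 of 8 tested and erythroid markers for 7 of 7. Of the endothelial markers, with sums of 914 to 1197 CPM in WT and 1145 to 1395 CPM in ST hearts, 3 were higher and 2 lower of 8 tested. Of the mesothelial ones, with sums of 24.7 to 37.8 and 29.7 to 33.1 CPM, 1 was higher and 2 were lower of 3, with a median log2 fold change of -2.78. Their part in the result was not tested.

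Hearts of 8 months were compared with ST hearts of 6 months and with WT hearts of 6 months. With a single ST group of 8 months and a table of its own for each time, time and table cannot be told apart. Both comparisons share the 8-month libraries, and each shares its 6-month libraries with the comparison above, so their values stand side by side as descriptions. Against ST hearts of 6 months, 4 genes were higher (Ccnd1, Mcm4, Mcm7 and Tyms) and 3 lower (Aurkb, Ccnd2 and Pcna) of 18 tested, where 19.1% of 12931 genes were higher and 20.5% lower. The median was 0.18 for the list and 0.02 for all genes. Against WT hearts of 6 months, 4 were higher (Ccnd1, Mcm5, Mki67 and Top2a) and 1 lower (Mcm2) of 18 tested, where 17.8% of 13095 genes were higher and 16.1% lower, with medians of 0.01 and -0.01. With no filter all 41 were fitted. Against ST hearts 3 were then higher and 3 lower, where 2518 and 3036 of 21814 genes were, with medians of 0.34 and 0.01. Against WT hearts 4 were higher and 1 lower, where 2496 and 2363 of 21908 genes were, with medians of 0.33 and -0.02. Scaled by library size only, the split of all genes against ST hearts moved from 2464 higher and 2651 lower to 3072 and 2140, with 4 and 3 genes of the list as before. Against WT hearts it moved from 2329 and 2112 to 1880 and 2856, and that of the list to 3 and 3, with Mcm5 lost (adjusted p = 0.064) and Ccnd2 and Mcm4 added as lower.

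**Figure D5:**
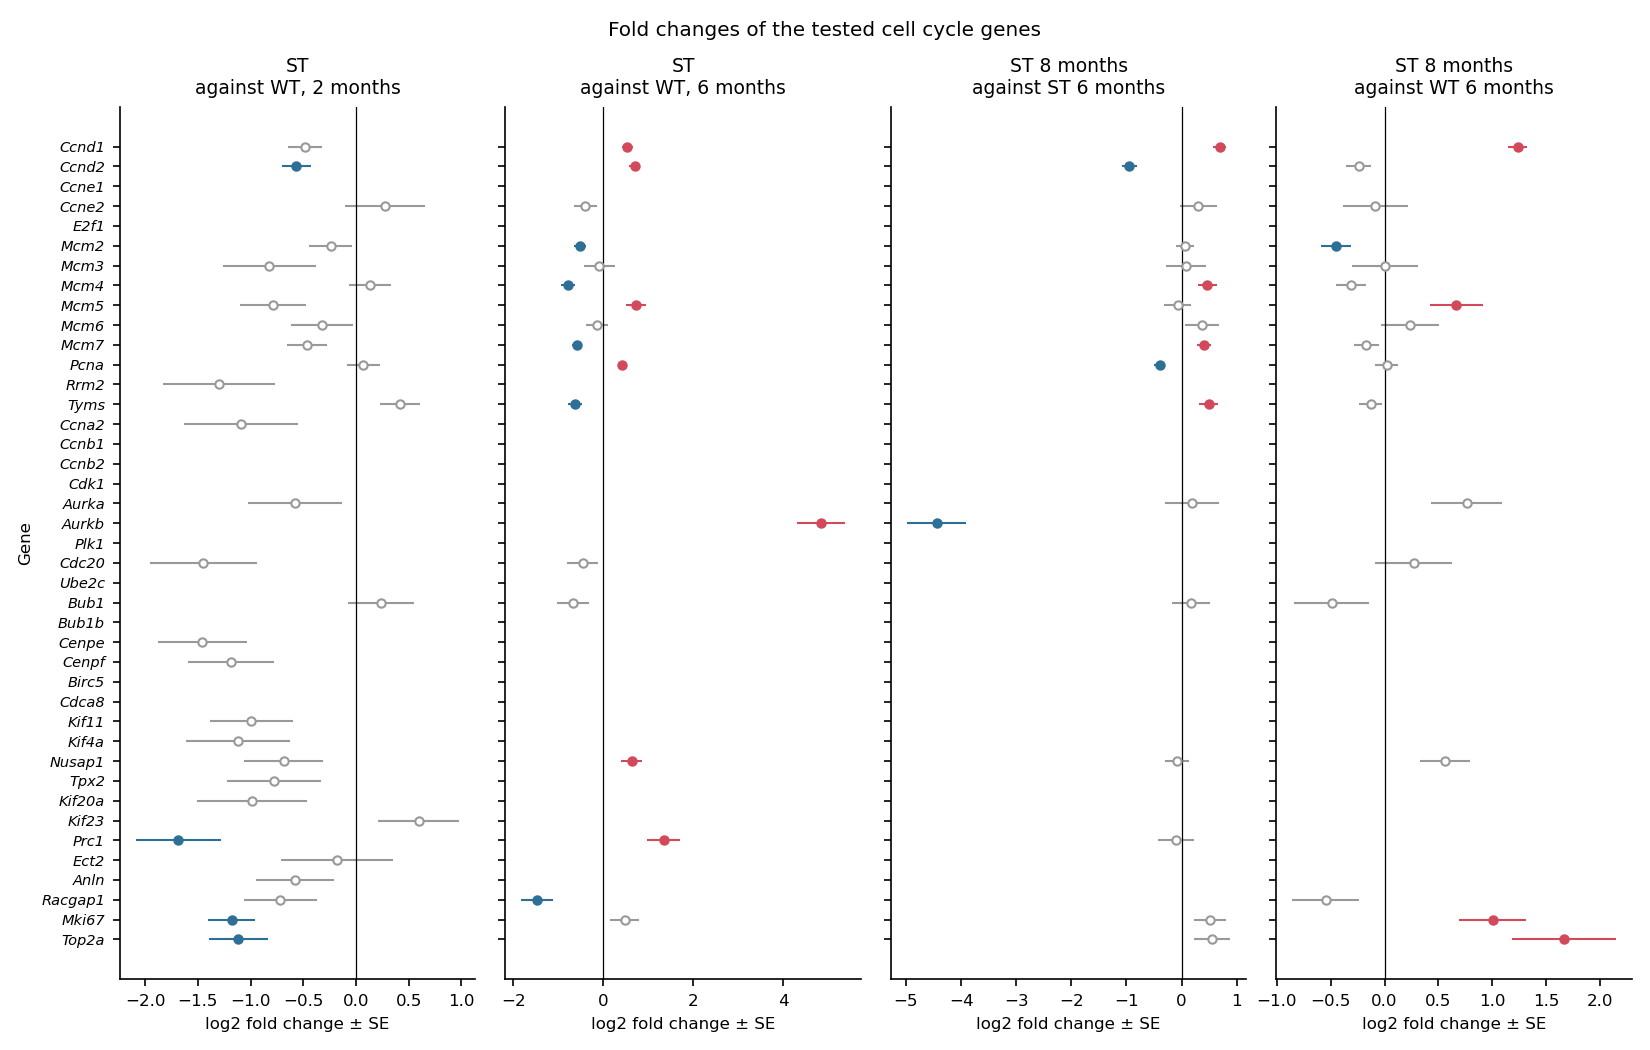
Log2 fold changes ± SE of the cell cycle genes tested in each of 4 comparisons, with filled red points for genes called higher, filled blue points for genes called lower at an adjusted p of 0.05, and open points for genes with no call. Horizontal scales differ between panels, and genes with no point were too low to test or not listed. At 2 months 24 of 30 points lie left of 0, while the other panels hold points on both sides.

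Aurkb at 8 months overlapped the WT hearts of 6 months, with 0.634, 0.564 and 0.726 CPM in the ST hearts, the last of them above all 3 WT hearts. It was lower than in ST hearts of 6 months by 4.45 on the log2 scale, a log2 fold change of -4.45 (SE 0.54, adjusted p = 3.5e-05). Against WT hearts of 6 months it was too low to test, with 10 counts against 11, a ratio of 1.32 (interval 0.502 to 3.42).

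Ccnd1 and Ccnd2 parted at 8 months. Ccnd1 had 119, 97.4 and 114 CPM, above all hearts of 6 months. Its log2 fold change was 0.70 (SE 0.12, adjusted p = 0.00055) against ST and 1.24 (SE 0.09, adjusted p = 3.3e-08) against WT hearts of 6 months. Ccnd2 had 25.2, 29.5 and 35.4 CPM, below all ST hearts of 6 months (-0.95, SE 0.13, adjusted p = 0.00011), and overlapped the WT hearts (-0.24, SE 0.12, adjusted p = 0.12).

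Pcna, at 22.8, 25.2 and 28.3 CPM, was below the ST hearts of 6 months (-0.40, SE 0.10, adjusted p = 0.0066) and overlapped the WT hearts (0.02, SE 0.11). Mcm2, at 10.1, 9.77 and 8.53 CPM, stayed below the WT hearts of 6 months (-0.45, SE 0.14, adjusted p = 0.019) and overlapped the ST hearts (0.06, SE 0.16). Mcm7 had 17.5, 21.4 and 18.1 CPM, above the ST hearts of 6 months (0.41, SE 0.13, adjusted p = 0.029), and Mcm4 11, 10.7 and 9.80 CPM (0.47, SE 0.17, adjusted p = 0.046). Tyms had 24.1, 22.4 and 19.8 CPM (0.49, SE 0.18, adjusted p = 0.041), and here 1 ST heart of 6 months overlapped. Against WT hearts Mcm4, Mcm7 and Tyms were at -0.32 (SE 0.14), -0.17 (SE 0.12) and -0.13 (SE 0.11) with no call. Mcm5 had 6.13, 4.70 and 3.99 CPM and was above the WT hearts by 0.67 (SE 0.24, adjusted p = 0.043).

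Mki67 and Top2a were higher at 8 months than in WT hearts of 6 months. Mki67 had 3.59, 2.63 and 3.63 CPM (log2 fold change 1.00, SE 0.31, adjusted p = 0.019) and Top2a 2.33, 1.88 and 1.81 CPM against 0.137, 0.644 and 1.07 CPM (1.67, SE 0.48, adjusted p = 0.014). Neither overlapped the WT hearts. Both passed the filter only through the hearts of 8 months, where they were high, and Top2a rests on 14 counts in the WT and 31 in the 8-month libraries. Without a filter the value for Top2a was 1.66 (adjusted p = 0.0045 by edgeR). Against ST hearts of 6 months they were at 0.52 (SE 0.29) and 0.56 (SE 0.33) with no call. The 27 genes outside G1 and replication summed to 33.4, 35.5 and 35.4 CPM at 8 months, and without Aurkb to 32.8, 35.0 and 34.7 CPM, against 25.1 to 27.1 CPM in WT and 26.8 to 33.2 CPM in ST hearts of 6 months. The 23 genes too low to test against WT hearts had 280 counts there and 282 at 8 months, from smaller libraries, a ratio of 1.46 (interval 1.23 to 1.73). The 23 too low to test against ST hearts had 365 and 309 counts (1.21, interval 1.04 to 1.41).

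Endothelial markers (8, none at 0) summed to 1406 to 1547 CPM at 8 months against 914 to 1197 CPM in WT hearts of 6 months, with 6 of 8 higher, and 8 macrophage and monocyte markers to 105 to 120 against 141 to 182 CPM, with 4 of 8 lower. In that comparison smooth muscle and pericyte markers had 4 higher and 1 lower of 7 tested, erythroid markers 3 higher and 0 lower of 7, and mesothelial markers 1 higher and 2 lower of 3. Against ST hearts of 6 months 4 of 8 endothelial markers were higher and 4 of 8 macrophage and monocyte markers lower. Their part in the result was not tested. Single libraries decided several of these calls. Against ST hearts the count fell to 4 without ST replicate 1 of 6 months or without replicate 2 or 3 of 8 months, and Mcm4, Mcm7 and Tyms were the calls lost. Against WT hearts it fell to 3 without WT replicate 3 and to 2 without replicate 1 of 8 months, when Mcm5 (0.50, adjusted p = 0.19), Mki67 (0.94, adjusted p = 0.064) and Top2a (1.56, adjusted p = 0.052) missed the threshold. Mcm5 passed in 1 of 6 such fits. Mki67 also missed it without replicate 3 of 8 months (0.92, adjusted p = 0.082), as did Mcm2 (-0.38, adjusted p = 0.088), and Top2a without WT replicate 1 (1.21, adjusted p = 0.051).

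The difference of the ST effect between 6 and 2 months was tested as an interaction over the names listed in both tables. It shares its libraries with the comparisons within 2 and within 6 months. A gene can pass its filter through 1 group alone, so some genes tested here were too low to test within 2 or within 6 months. Of 32 genes tested 11 had a higher effect at 6 months and 2 a lower one, where 10.2% and 12% of 12658 genes did, and the median difference was 0.76, against -0.02 for all genes. Ccnd2 had the smallest adjusted p of them, though its level differed widely between 2 and 6 months, as given below. Its log2 fold change was -0.57 at 2 and 0.70 at 6 months, a difference of 1.26 (SE 0.18, adjusted p = 0.00013). For Prc1 the values were -1.69 and 1.34, a difference of 3.02 (SE 0.54, adjusted p = 0.00099). Ccnd1 differed by 1.01 (SE 0.22, adjusted p = 0.0037), Mki67 by 1.65 (SE 0.44, adjusted p = 0.013) and Top2a by 2.21 (SE 0.57, adjusted p = 0.011). Mcm4 and Tyms differed the other way, by -0.94 (SE 0.24, adjusted p = 0.012) and -1.06 (SE 0.26, adjusted p = 0.0092). Scaled by library size only, the split of all genes moved from 1294 and 1517 to 1005 and 1893 and that of the list to 10 and 2, with Nusap1 lost. Without WT replicate 1 of 2 months 5 of the 13 calls were left. Levels of 2 months were not compared with later ones, because the tables list different names. Ccnd2 is listed at both times. It had 587 to 724 CPM in WT hearts of 2 months and 32.4 to 37.8 CPM in those of 6 months. The reason for that gap was not tested, and time and table cannot be told apart.

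A second list held 109 further genes of the cycle, and those named from it here as higher or lower passed the same edgeR test. At 2 months 62 of them were tested, 1 was higher and 3 were lower, beside 2.7% and 2.1% of all genes, with a median of -0.15. The lower ones were Mycn, a transcription factor of growing tissue (-1.76, SE 0.37), the chromatin protein Hmgb2 (-1.34, SE 0.32) and the spindle protein Ckap2 (-2.08, SE 0.54), and the higher one was Mcm10, a factor of replication initiation (1.04, SE 0.20). Mycn and Ckap2, for example, passed the filter through the WT hearts alone. At 6 months 63 were tested, 6 higher and 18 lower (9.52% and 28.6%, beside 19.9% and 20.1% of all genes), with a median of -0.15. Cdkn1a, the p21 inhibitor of cyclin-dependent kinases, rose from 21.0, 21.9 and 21.9 CPM to 125, 119 and 141 CPM (2.57, SE 0.09). Myc, a transcription factor that drives growth, rose from 3.00, 2.58 and 1.07 to 40.1, 24.0 and 46.9 CPM (4.05, SE 0.32). Cenpa, the histone of centromeres, rose from 0.410, 0.515 and 1.20 to 8.94, 7.74 and 7.72 CPM (3.49, SE 0.30), and Ccnd3, the remaining D-type cyclin, by 0.40 (SE 0.09). The groups of Cdkn1a, Myc and Cenpa did not overlap. Myc and Cenpa passed the filter through the ST hearts alone, where they were high.

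Lower at 6 months were the condensin genes Smc4 (-0.80, SE 0.12) and Smc2 (-0.76, SE 0.15), the kinase inhibitor Cdkn1b (-0.39, SE 0.08) and Dut (-0.48, SE 0.10), which keeps uracil out of DNA. Against ST hearts of 6 months, 7 of 57 tested were higher at 8 months, led by Mcm10 (0.89, SE 0.13), and 7 lower (12.3% each, beside 19.1% and 20.5% of all genes), with Cdkn1a at -1.36 (SE 0.08), Myc at -2.73 (SE 0.27) and Cenpa at -2.64 (SE 0.31). Cdkn1a had 52.2, 49.6 and 48.8 CPM at 8 months, between the groups of 6 months. Against WT hearts of 6 months, 6 of 56 were higher (10.7%, beside 17.8% of all genes), Cdkn1a by 1.23 (SE 0.09) and Myc by 1.32 (SE 0.32), and 8 were lower (14.3%, beside 16.1%), including Cdc25b, a phosphatase that activates Cdk1 (-0.93, SE 0.10), and Smc4 (-0.68, SE 0.11). Here Myc passed the filter through the hearts of 8 months alone.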

How the data were processed

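Bulk RNA of 13 rat heart libraries was analysed. Per the labels the replicates are biological, but nothing ties libraries to animals, so p-values measure only the spread between these samples. The values are expected counts as the authors deposited them, in 1 table for each time point; the aligner and counter are not given in the sources used here, nor is the strand setting. The submitters' processing notes list mouse builds, whereas the gene names are those of rat. Estimated counts were rounded. Each comparison used its own libraries, edgeR 4.0.16 (R 4.3.3) with filterByExpr, TMM factors and its quasi-likelihood F test, which is two-sided, with Benjamini-Hochberg adjustment over all genes tested and a threshold of 0.05. Standard errors (SE) come from the fold change and F: |log2 fold change|/sqrt(F). CPM levels are counts per 1000000 counts with TMM factors, computed for the 2-month libraries alone and for those of 6 and 8 months together. Ratios of summed counts are scaled by the same library sizes, with exact binomial 95% intervals.

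The members and lists were chosen with earlier results of these data known. Fold changes are printed for genes past the threshold, levels for the leading genes of each role, and counts, singly or summed, for genes below the filter. Of the second list, up to 4 genes in each direction with the smallest p are named, and Incenp was added after its values were seen. Marker lists of 9 cell types were examined. At 6 months fibroblast markers had 3 higher and 3 lower of 8 tested, and those of neutrophils and marrow progenitors 0 higher and 1 lower of 1. Spans that overlap another RefSeq gene (Ccne2, Nusap1, Kif11, Kif20a, Anln, Rrm2, Aurka, Plk1, Kif4a and Mcm7 among them) may share reads with it. Alternatives were other size factors, library size only, no filter, a filter of 5 CPM, DESeq2 1.42.0, a replicate block, and leaving out each library. Simulated counts with known fold changes served to test the scripts.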

Additional observations from a re-analysis of the deposited data

Results flagged for a closer look

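These genes are listed because the effect of the ST group on them differed between 6 and 2 months by the test of the difference itself (edgeR interaction, log2 fold change at 6 minus that at 2 months). Positive differences were 1.01 for Ccnd1, 1.26 for Ccnd2, 1.52 for Mcm5, 3.09 for Ccna2, 5.02 for Aurkb, 2.91 for Kif11, 1.29 for Nusap1, 3.02 for Prc1, 1.96 for Anln, 1.65 for Mki67 and 2.21 for Top2a. Negative differences were -0.94 for Mcm4 and -1.06 for Tyms. A gene can enter this test through 1 group alone. Ccna2, Kif11, Anln and Top2a were too low to test within 6 months, with 4, 4, 14 and 14 counts over the WT libraries there. Aurkb was too low to test within 2 months. When single libraries were left out, Ccnd1, Ccnd2, Mcm4 and Prc1 kept their calls in 10 of 10 fits, Aurkb, Top2a and Tyms in 9, Ccna2, Mcm5 and Mki67 in 8, Nusap1 in 3, and Kif11 and Anln in 4. Time and table cannot be told apart in these differences. With 2 or 3 hearts a group, single genes were not tested for an outlying heart.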

How the results depend on the processing

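Under the alternatives run, each gene of the list kept its direction in the comparisons where it passed, while calls changed. Genes below the filter of 5 CPM have no value under it. At 2 months 582 genes passed, 1019 without a filter, 359 by DESeq2 and 271 to 2013 with a library left out (271 without WT replicate 1, 2013 without ST replicate 2). Of the list 4 passed, 8 without a filter, 2 by DESeq2 and 1 to 7 with a library left out. For the difference between 6 and 2 months, genes ran from 1558 to 3197 and members from 5 to 12 with a library left out, against 2811 and 13. At 8 against ST 6 months, 7 members became 4 by DESeq2 and 4 to 7 with a library left out. At 8 months against WT 6 months, 5 became 2 with the filter of 5 CPM, 2 by DESeq2 and 2 to 5 with a library left out.

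The summed level of the list (log2 ratio of means) rests on few genes. At 2 months it was -0.53 (-0.67 to -0.37 with a library left out). At 6 months it was 0.27, 0.16 by library size only, 0.021 without Ccnd1 and Ccnd2 and 0.46 without Mcm2 to Mcm7 and Pcna. At 8 months against WT it was 0.34, and 0.29, 0.012 and 0.55 under the same alternatives. At 8 against ST 6 months it was 0.07, within the spread of the hearts, and changed sign, to -0.0087 without Ccnd1 and Ccnd2 and to -0.0013 without ST replicate 2 of 6 months (-0.0013 to 0.13 with a library left out).

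Whether replicate numbers pair the samples is not settled by these values. Deviations of same-numbered hearts correlated at 0.071 at 2 months and at 0.030, 0.111 and 0.004 at 6 months. For ST hearts of 8 months the values were 0.055, 0.178 and 0.038 against ST and 0.040, 0.035 and 0.026 against WT hearts of 6 months. With 2 hearts a group the deviations mirror each other, so the value at 2 months cannot show pairing or its absence. With the replicate block 636 genes passed at 2 months and 5435 at 6 months, and 5 and 12 members. At 8 months, 5427 genes and 7 members passed against ST hearts and 4652 and 5 against WT hearts, and the difference between 6 and 2 months had 2941 and 13. Depth limits the mitotic genes most: 23 of 41 had too few counts to test at 6 months.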

Other observations

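Foxm1, a transcription factor of mitotic genes and no member of the list, was singled out after its values were seen. At 2 months the WT libraries held 17 counts of it and the ST libraries 0. With 3 counts put in place of 0 for the ST group, its scaled level was 7.29-fold lower there. That value takes the 17 counts as exact and leaves out the spread between hearts, so it is no lower bound. At 6 months it had 1.91, 1.67 and 1.07 CPM in WT and 2.62, 1.97 and 1.83 CPM in ST hearts, and at 8 months 2.33, 2.82 and 2.90 CPM.

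Mcm10, a replication factor of the second list, had 7.13 and 7.68 CPM in WT and 14.1 and 16.4 CPM in ST hearts of 2 months. At 6 months it had 30.4, 30.7 and 34.2 CPM in WT and 27.9, 18.8 and 27.7 CPM in ST hearts, every ST heart below every WT heart. At 8 months it had 42.7, 47.4 and 47.4 CPM, above all hearts of 6 months (18.8 to 34.2 CPM).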
